A study of Mus musculus with 7 samples.

Results

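The Cyp2a/Cyp2b cluster of mouse chromosome 7 was examined for H3K27me3 in 7 livers. The cluster was taken as the interval from 26550001 to 28000000 in the build mm9, 1450 kb long, and every island that overlapped it was used: 45 of 122262 in the series, which merged over the livers into 13 of 17394 regions. Each liver came from a different 7-week-old male CD-1 mouse, an outbred stock, and the labels name no transgene or deletion. The 3 vehicle mice had received 1% DMSO in corn oil and the 4 TCPOBOP mice 3 mg/kg of TCPOBOP, and tissue was taken 27 h later. TCPOBOP is a ligand of the mouse constitutive androstane receptor (CAR). The comparison asked what CAR activation did to the repressive mark over the cluster that holds a main CAR target, Cyp2b10. Whole liver was used, so a lower level of the mark per cell and fewer cells with the mark cannot be told apart.

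H3K27me3 is laid down by Polycomb repressive complex 2 and lies in broad domains over genes that a tissue keeps silent. CAR is held in the cytoplasm of hepatocytes until a ligand such as TCPOBOP sends it to the nucleus, where it binds enhancers of drug-metabolising genes, Cyp2b10 foremost. The cluster holds cytochrome P450 genes of the Cyp2 family. Cyp2b10 oxidises many drugs and is the standard marker of CAR activity. Cyp2b9 and Cyp2b13 are its close relatives and are expressed mainly in female liver. Cyp2a4 and Cyp2a12 hydroxylate steroids, Cyp2a5 hydroxylates coumarin and Cyp2f2 oxidises small aromatic compounds such as naphthalene. Cyp2b19, Cyp2g1 and Cyp2s1 are known mainly from skin, olfactory tissue and epithelia outside the liver.

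In the RefSeq gene table, which is of the later build GRCm38.p6 and was used for names and order only, all 10 named P450 genes were found on chromosome 7. They stood in the order Cyp2s1, Cyp2b10, Cyp2b13, Cyp2b9, Cyp2a4, Cyp2b19, Cyp2g1, Cyp2a5, Cyp2a12 and Cyp2f2. From Cyp2s1 to Cyp2f2 the table listed 39 genes, of which 17 were protein-coding. Of those, 12 were Cyp2 genes, 2 were vomeronasal receptors (Vmn1r184 and Vmn1r185) and 3 were Nlrp genes. No protein-coding gene stood between Cyp2s1 and Cyp2b10, and 8 of the 10 named genes followed Cyp2b10. Positions of genes in mm9 were not used here, except that Cyp2b10 was placed at 26680001 to 26710000, a stretch of 30 kb with rounded ends. Islands could therefore be set against Cyp2b10 itself, and against the other genes only by their side of it. Neither exons nor introns were assigned, and the livers were not checked against the positions of hepatocyte genes.

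The promoters of the Cyp2b genes are shown because over Cyp2b10 only vehicle livers had islands, and because its relatives share part of their sequence with it. The 250 bases before the RefSeq start (GRCm38.p6, plus strand for these 3 genes, coordinates of that build and not of mm9) read as below. Capitals in the Cyp2b10 line mark CATAAAAG, an A/T-rich element that starts 28 bases before the start, and capitals in the other lines mark the bases at which Cyp2b13 and Cyp2b9 differ.
Cyp2b10, chr7:25897408-25897657: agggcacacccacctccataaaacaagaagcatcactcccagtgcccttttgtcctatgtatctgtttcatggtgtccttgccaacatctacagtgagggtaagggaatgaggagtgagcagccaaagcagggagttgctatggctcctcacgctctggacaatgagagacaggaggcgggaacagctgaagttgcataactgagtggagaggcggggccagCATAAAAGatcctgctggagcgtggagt
Cyp2b13, chr7:26061245-26061494: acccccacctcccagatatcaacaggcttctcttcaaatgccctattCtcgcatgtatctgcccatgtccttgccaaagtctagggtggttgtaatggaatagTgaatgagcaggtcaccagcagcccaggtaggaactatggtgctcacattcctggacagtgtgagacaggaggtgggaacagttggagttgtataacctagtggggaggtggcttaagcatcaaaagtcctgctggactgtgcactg
Cyp2b9, chr7:26173159-26173408: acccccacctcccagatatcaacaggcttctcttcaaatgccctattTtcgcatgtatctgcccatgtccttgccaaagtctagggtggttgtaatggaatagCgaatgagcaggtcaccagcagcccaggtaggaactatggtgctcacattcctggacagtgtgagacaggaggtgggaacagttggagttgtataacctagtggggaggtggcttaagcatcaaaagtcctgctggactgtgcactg

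The Cyp2b13 and Cyp2b9 promoters were 99.2% identical and differed by C48T and T104C (Cyp2b13 base first, counted from the first base printed). Those of Cyp2a4 and Cyp2a5 were 97.6% identical over their alignment. The Cyp2b10 promoter was less alike, with 70.0% identity to each of Cyp2b9 and Cyp2b13 and 66.9% to Cyp2b19. By the same alignment it had 46.15% (Cyp2a12) to 50.55% (Cyp2s1) identity to the matched promoters outside the Cyp2b genes. How reads that fit several of these genes were placed is not given in the sources used here, and its part in the island calls was not tested. RefSeq promoters were matched for 9 of the 10 named genes, all but Cyp2g1. CATAAAAG, searched on both strands after the sequences had been seen, was in 2 of the 9, Cyp2b10 and Cyp2b19. It was in 0.889% of all 32851 promoter entries of that length. The element was chosen with the Cyp2b10 promoter in view, so these shares are not a test. In Cyp2b19 it starts 10 bases before the start. The similar TATAAAAG, which was not counted, stands in the promoters of Cyp2a4 and Cyp2a5. AGGTCA, the half-site bound by many nuclear receptors, was in 4 of the 9 (Cyp2b13, Cyp2b9, Cyp2b19 and Cyp2f2), again on both strands. It was in 14% of all entries and not in these 250 bases of Cyp2b10. In Cyp2b13, Cyp2b9 and Cyp2b19 it lay in the same run of bases that these related promoters share. Those hits are therefore not separate cases, and the share in the cluster was not tested against 14%. The promoters held few CpG dinucleotides, with 4 in Cyp2b10 and 0 to 2 in the Cyp2b, Cyp2a and Cyp2f2 genes other than Cyp2b10, beside a median of 6 over all entries. Cyp2s1 stood apart with 15.

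The lists of islands gave no read numbers, and read numbers were not recovered here, so the depth behind each island is unknown. A list held 14167 to 17852 islands in the vehicle group and 16481 to 20550 in the TCPOBOP group, and the lowest score in a list was 75.4 to 100.7 with vehicle and 66.6 to 77.5 with TCPOBOP. Vehicle replicate 2 and TCPOBOP replicate 2 each had 537 Mb under islands and the other lists 583 to 605 Mb. An island is a run of windows of 400 bp that the program SICER joined, and where a list has no island the mark may still be present below that list's threshold. The authors' score of an island grows with its length and with depth, so below it is used only within the liver's own list. There it serves as a percentile, as a multiple of the list's lowest score, and to filter or shorten the list.

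Islands lay over a stretch within Cyp2b10 in every vehicle liver and in no TCPOBOP liver. In vehicle replicate 1 the island ran from 26691601 to 26700000, which is 8.4 kb. Vehicle replicate 2 had one of 17.2 kb, from 26683601 to 26700800. That of vehicle replicate 3 was 10.4 kb long, from 26690401 to 26700800. All 3 islands were inside the Cyp2b10 stretch, their right ends fell within 0.8 kb of each other and their left ends within 8.0 kb. They shared 8.4 kb, from 26691601 to 26700000, which began 11.6 kb inside the stretch and ended 10.0 kb before its end. RefSeq lists Cyp2b10 on the plus strand, and where the gene starts in mm9 was not used here.

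The 4 TCPOBOP livers had 0 kb under islands in the Cyp2b10 stretch. Their nearest islands were 69.6, 72.0, 68.4 and 69.2 kb away for TCPOBOP replicates 1 to 4, all on the Cyp2s1 side if the gene order of GRCm38.p6 holds in mm9, as is taken here throughout. Vehicle livers averaged 12 ± 4.61 kb (SD, n = 3) in the stretch against none in any TCPOBOP liver, so the groups did not overlap. The difference was -12 kb (95% interval -17.2 to -8.4 kb), with an exact permutation p = 0.0286, two-sided, which is the smallest that 3 against 4 livers allow. Adjusted over the 5 measures compared between groups (cover, relative cover and island number of the cluster, cover and distance for Cyp2b10) it was p = 0.0714 (Benjamini-Hochberg; exact permutation), and so it did not pass 0.05 after adjustment. The interval of -17.2 to -8.4 kb takes the shift to be the same in every liver. With every TCPOBOP liver at 0 kb, its bounds equal in size the highest and lowest vehicle values. The distance to the nearest island differed by 69.8 kb (95% interval 66.5 to 74.9 kb, exact permutation p = 0.0286, adjusted 0.0714), which restates the same islands. Counting this repeat among the 5 measures lowered the adjusted p of the Cyp2b10 cover.

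**Figure D1:**
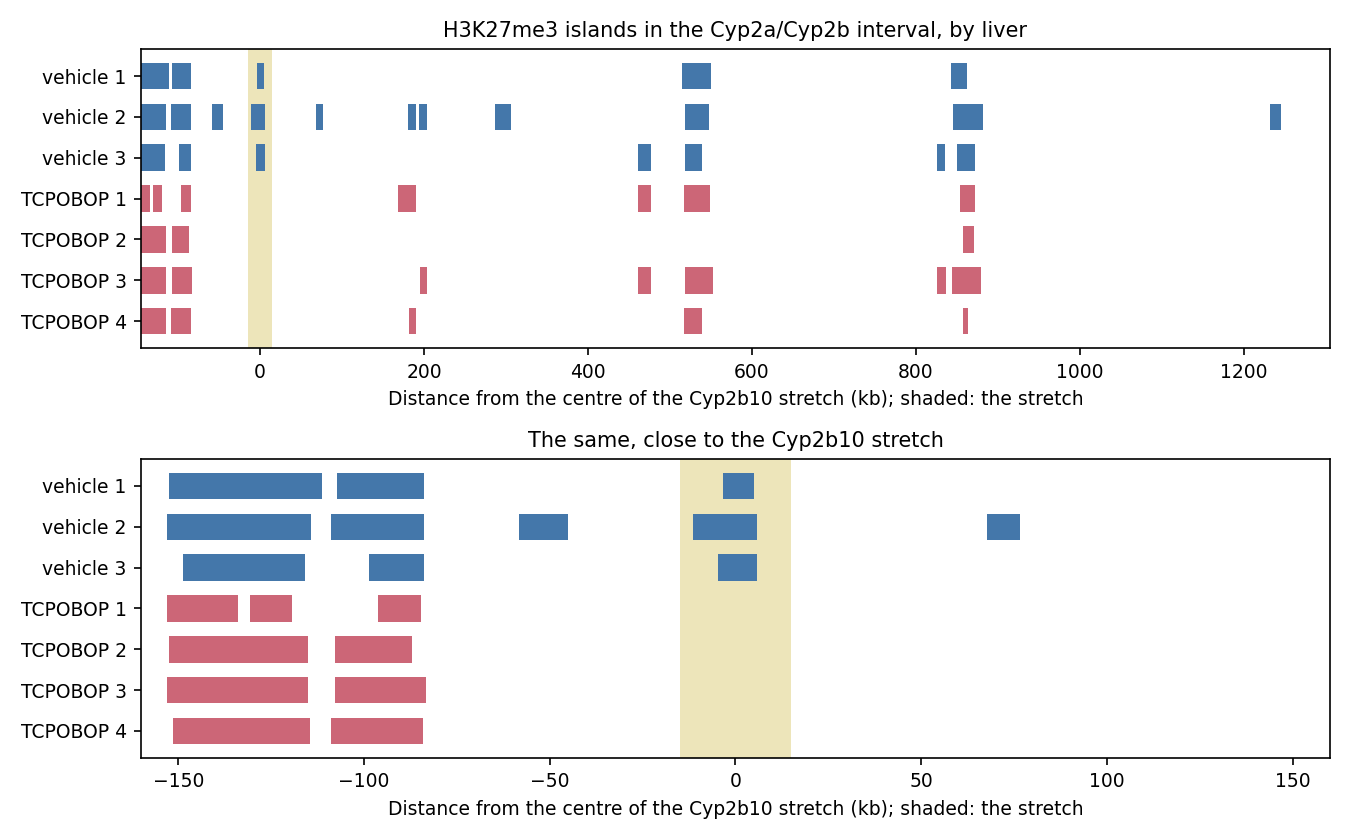
Islands of each liver as bars, 3 vehicle livers in blue and 4 TCPOBOP livers in red, against distance in kb from the centre of the Cyp2b10 stretch (shaded, 30 kb); the upper panel spans the 1450 kb interval and the lower one its surroundings near Cyp2b10. Bars of 8.4, 17.2 and 10.4 kb lie in the shading in the vehicle livers, and no TCPOBOP liver has a bar there.

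Such a pattern was rare among all regions but not confined to Cyp2b10. Of the 13 regions of the cluster, 1 (7.69%) had islands in all 3 vehicle and in 0 TCPOBOP livers, the one over Cyp2b10, and 0 had the reverse. Over the whole series 15 of 17394 regions (0.0862%) had the first pattern and 45 the second. Among these 15 the Cyp2b10 region had the lowest mean vehicle cover, 12 kb, beside a median of 24.8 kb and a highest of 38.8 kb. Of all 35866 autosomal tiles of 30 kb with an island in at least 2 livers, 36 (0.1%) had vehicle islands in all 3 and TCPOBOP islands in 0 livers, and 95 the reverse. In 1.58% of those tiles every vehicle liver had more cover than every TCPOBOP liver. A region can show the first pattern only if exactly 3 livers have islands in it, as in 3 of the 13. The 17394 also hold regions with islands in fewer or more livers, which lowers the share. Since the cluster was picked with earlier results in view, these shares describe the series and are not a test.

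The Cyp2b10 islands were narrow and of modest score. Within their own lists their scores were at percentiles 14.4, 45.8 and 30.9 for vehicle replicates 1 to 3, all under the median island. They were 1.16, 1.98 and 1.45 times the lowest score of their own list. Per window their scores were at percentiles 97.1, 60.7 and 87.2. A narrow island is kept only when its windows score highly, so a high value per window is partly set by the width. Elsewhere in the cluster 3 of the 4 TCPOBOP livers had islands of lower rank than these, at percentile 0.302 in TCPOBOP replicate 3, 3.44 in replicate 1 and 3.56 in replicate 4. In TCPOBOP replicate 2 the lowest was at 32.0, above the Cyp2b10 islands of vehicle replicates 1 and 3. The lists differ in length and lowest score, so these ranks do not tell what a list could have shown over Cyp2b10. With only the islands at or above the median score of each list, all 3 Cyp2b10 islands were gone and the stretch was at 0 kb in both groups. When each list was reduced by score to the length of the shortest one, the values were as before, 12 and 0 kb.

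**Figure D2:**
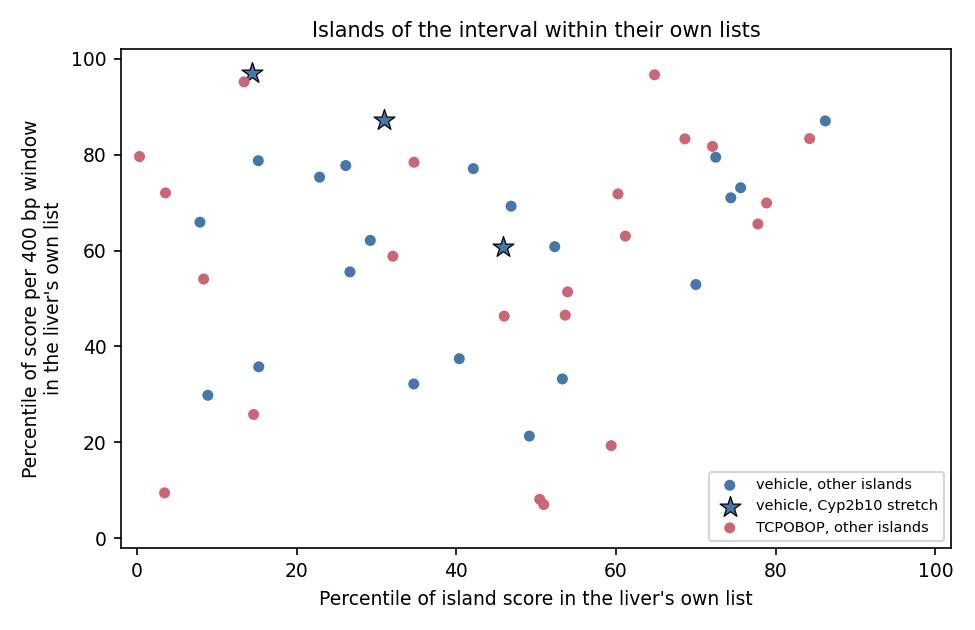
Each point is 1 of the 45 islands of the cluster, with the percentile of its score in its own liver's list on the x axis and the percentile of its score per window on the y axis; stars mark the vehicle islands in the Cyp2b10 stretch. The stars lie at score percentiles of 14.4 to 45.8 and per-window percentiles of 60.7 to 97.1.

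Across all genome bins and regions no difference passed the test. The 50 kb bin that holds most of the Cyp2b10 islands, from 26650001 to 26700000, had 8.4, 16.4 and 9.6 kb under islands in vehicle replicates 1 to 3 and 0 kb in each TCPOBOP liver. Its covered fraction differed by -0.23 (SE 0.0586; limma unadjusted p = 0.00456, adjusted p = 1 over 23829 bins). For the Cyp2b10 region the difference in fraction was -0.70 (SE 0.317; limma unadjusted p = 0.0308, adjusted p = 1 over 13988 regions). Of the 9 bins of the cluster that were tested, limma called 0 (adjusted p under 0.05). Without adjustment 1 of the 9 (11.1%) was below 0.05, with less cover after TCPOBOP, beside 1.8% of all bins in that direction. That bin was also the only one of the 9 in which every vehicle liver exceeded every TCPOBOP liver, beside 1.72% of all bins tested. Over the genome 0 of 23829 bins (0%) and 0 of 13988 regions (0%) were called, with 942 bins and 542 regions at an unadjusted p under 0.05. The median difference in fraction over the 9 bins was -0.06, and over all bins tested 0.0033.

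Outside Cyp2b10, islands took a larger share of the length on the Cyp2s1 side than on the other. The 130 kb from the start of the interval to the Cyp2b10 stretch, the side on which Cyp2s1 stands, had 26.2 to 53.2% of their length under islands. The 1290 kb on the other side, with the remaining Cyp2b, Cyp2a, Cyp2g and Cyp2f genes and the Vmn1r and Nlrp genes, had 1.09 to 9.77%. Genes of that side were not placed in mm9, so its share is not a value for the P450 genes. In length, the longer side held more, 70.3 ± 38.9 kb against 52.1 ± 11.0 kb (SD, n = 7), and was the higher in 4 of the 7 livers. The region from 26542001 to 26583600 had islands in all 7 livers and was the fullest of the cluster. It had 41.2, 38.8 and 32.8 kb of its 41.6 kb under islands with vehicle and 30.4, 37.6, 38.0 and 36.8 kb with TCPOBOP. The next, from 26586001 to 26611600, had 23.6, 25.2 and 14.8 kb and 11.6, 20.8, 24.4 and 24.8 kb. In both, livers of the 2 groups overlapped, and the difference in covered fraction was -0.05 (SE 0.0609) and -0.03 (SE 0.117), with a limma adjusted p = 1 in each. Islands of the first region had a median score percentile of 76.7, the highest of the cluster, and those of the second 64.8.

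On the far side of Cyp2b10, 2 further regions recurred in most livers. The one from 27538401 to 27576400 was the third with islands in all 7 livers, with 19.6, 35.6 and 21.6 kb under islands with vehicle and 18.8, 14, 35.2 and 5.6 kb with TCPOBOP. That from 27210001 to 27247200 had islands in 6 livers, all but TCPOBOP replicate 2, of 35.6, 29.6 and 20.8 kb with vehicle and 31.2, 34.0 and 22.8 kb with TCPOBOP replicates 1, 3 and 4. Groups overlapped in each, and the differences in fraction, -0.19 (SE 0.231) and -0.18 (SE 0.182), did not pass (limma adjusted p = 1). The region from 27156001 to 27172000 was found in vehicle replicate 3 and TCPOBOP replicates 1 and 3, at 15.6, 15.6 and 16.0 kb.

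The other regions were found in few livers. That from 26863601 to 26885200 was present in vehicle replicate 2 (9.2 kb) and in TCPOBOP replicates 1 and 4 (21.6 and 8.8 kb). Regions from 26889201 to 26898400 and from 27520401 to 27532000 were each in 1 vehicle and 1 TCPOBOP liver. The remaining 4, which start at 26636801, 26762801, 26981201 and 27926801 and are 13.2, 8.8, 19.6 and 14 kb long, were in vehicle replicate 2 only. By order along the chromosome the first of them lies between the Cyp2s1-side islands and Cyp2b10 and the others beyond Cyp2b10.

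Much of the cluster was free of islands in every liver. Of its length 81.7% had no island in any of the 7 lists and 2.54% had islands in all of them. Free stretches of 350.4 kb, from 27576401 to 27926800, and of 273.2 kb, from 27247201 to 27520400, were the longest, and both lie beyond Cyp2b10, on the side of Cyp2f2. Next came 155.2 kb from 27000801 to 27156000. The Cyp2b10 islands were flanked by free stretches of 33.6 kb, from 26650001 to 26683600, and 62.0 kb, from 26700801 to 26762800. Of the 50 kb bins, 16 of 29 had no island in any liver and 3 had islands in all. Of the length under islands in any liver, 13.9% was under islands in all 7, and the same share over the autosomes was 29.0%; no test was made of these shares.

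Islands covered a smaller share of the cluster than of chromosome 7. They covered 8.33, 14.6 and 8.44% of the interval in vehicle replicates 1 to 3 and 8.36, 4.47, 11.0 and 6.37% in TCPOBOP replicates 1 to 4. In the same livers they covered 25.9 to 26.6% of chromosome 7 and 21.7 to 24.5% of the autosomes, so the interval was lower than both in 7 of 7 livers. Among 1686 autosomal windows of 1450 kb, the mean over the livers put it at percentile 27.9, with 24.1 to 30.8 in single livers except vehicle replicate 2, at 46.4.

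Total cover of the cluster did not differ beyond the spread between livers. Under islands were 120.8, 212.4 and 122.4 kb in vehicle replicates 1 to 3, and 121.2, 64.8, 159.2 and 92.4 kb in TCPOBOP replicates 1 to 4, so the groups overlapped. The means were 152 ± 52.4 kb (SD, n = 3) and 109 ± 40.4 kb (SD, n = 4), a difference of -42.5 kb (95% interval -148 to 73.7 kb, exact permutation p = 0.343, adjusted 0.429). Much of this came from vehicle replicate 2, since leaving it out gave -12.2 kb (exact permutation p = 0.667). Numbers of islands were 5, 11 and 7 with vehicle and 7, 3, 7 and 5 with TCPOBOP, a difference of -2.17 (95% interval -8.0 to 2.0, exact permutation p = 0.457, adjusted 0.457), and without vehicle replicate 2 it was -0.5. Cover of the cluster relative to that of the autosomes in the same liver was 0.461 ± 0.185 (SD, n = 3) and 0.318 ± 0.105 (SD, n = 4), which did not pass either (difference -0.142, 95% interval -0.468 to 0.161, exact permutation p = 0.229, adjusted 0.381); without vehicle replicate 2 it was -0.0359. With only the islands at or above the median score of each list, all 3 differences changed sign, to 12.1 kb, 0.917 islands and 0.0328 (exact permutation p = 0.686, 0.4 and 0.8). With all islands, mean cover was lower with TCPOBOP in 11 of the 13 regions, 4 of which were in vehicle replicate 2 alone. Over all regions tested in the genome the median difference in fraction was 0.0059. The share of those regions with lower cover was not counted, so whether 11 of 13 is unusual was not tested.

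**Figure D3:**
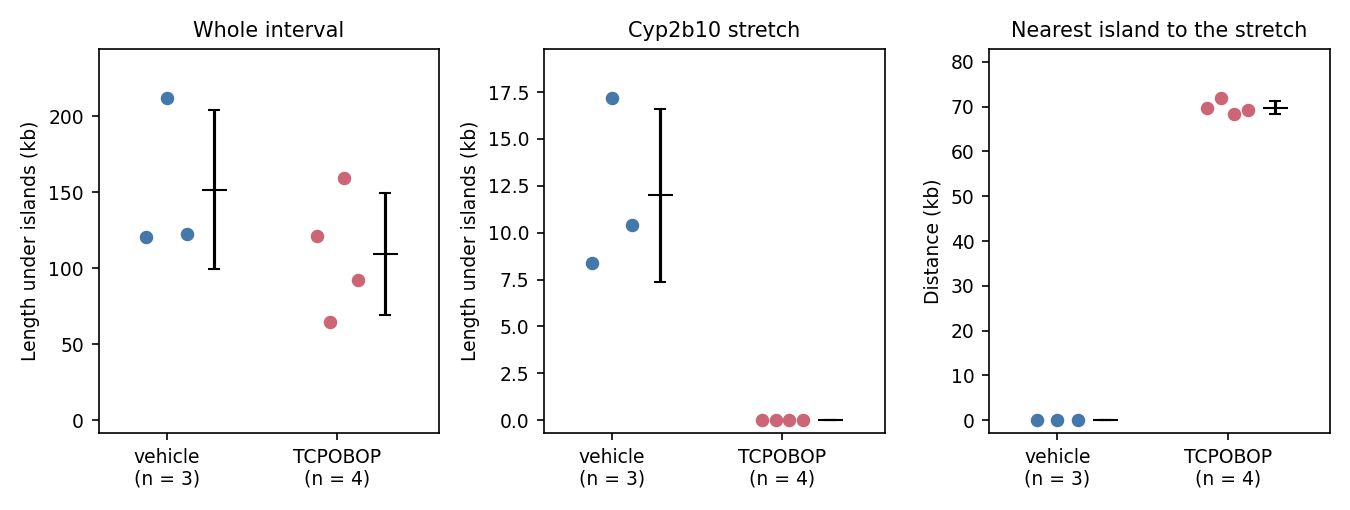
Points are livers, with the mean and SD of each group beside them (3 vehicle, 4 TCPOBOP), for the length of the interval under islands (kb), the length of the Cyp2b10 stretch under islands (kb) and the distance from that stretch to the nearest island (kb). The groups overlap in the first panel, where vehicle replicate 2 is highest at 212.4 kb, and do not overlap in the other 2.

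By 50 kb bins, the Cyp2b10 bin had the greatest difference between group means in the cluster, with a vehicle mean of 11.5 ± 4.31 kb (SD, n = 3) against none in any TCPOBOP liver. The other 4 of the 5 bins with the greatest differences also had a lower mean after TCPOBOP. The differences were -6.67 kb from 27200001 to 27250000, -6.27 kb from 26950001 to 27000000, -5.97 kb from 27500001 to 27550000 and -5.40 kb from 26600001 to 26650000. In each of those 4 bins the groups overlapped. The bin from 26950001 to 27000000 was covered in vehicle replicate 2 only and was not tested. Of the 29 bins, 11 had a lower and 2 a higher mean after TCPOBOP. Among the lower ones, those that start at 26750001, 26950001, 27000001 and 27900001 were covered in vehicle replicate 2 only. Over all bins tested in the genome the median difference in fraction was 0.0033.

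**Figure D4:**
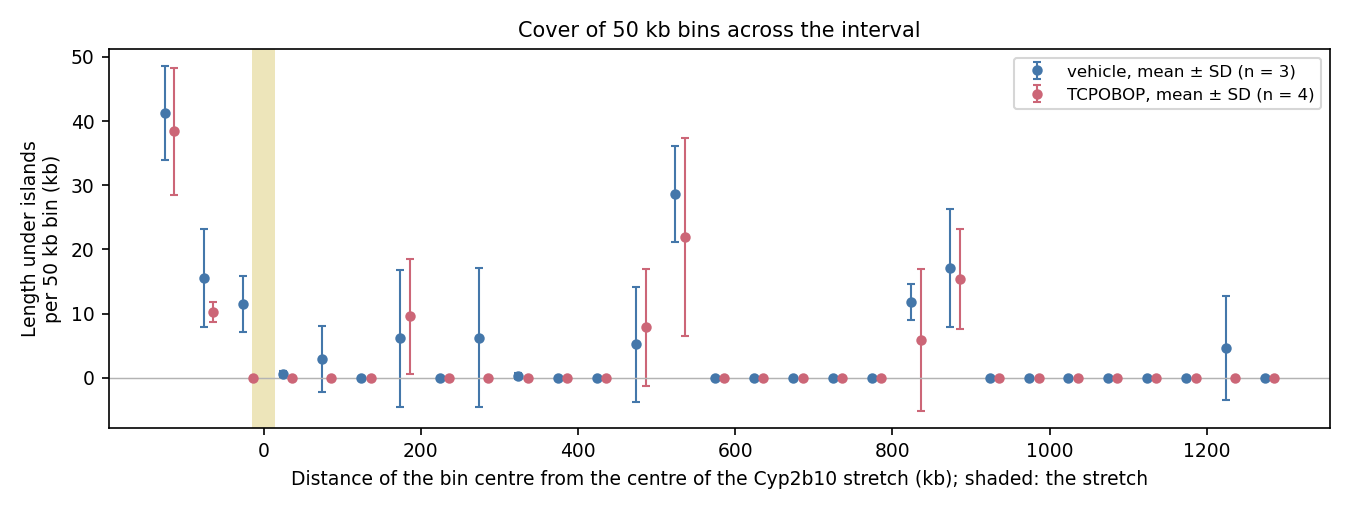
Mean ± SD of the length under islands (kb) in each 50 kb bin of the interval for vehicle (n = 3) and TCPOBOP (n = 4) livers, against the distance of the bin's centre from that of the Cyp2b10 stretch (shaded). The first bin holds the highest cover, with means of 41.2 and 38.4 kb, and in the bin just left of the stretch's centre vehicle is at 11.5 kb and TCPOBOP at 0 kb.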

How the data were processed

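H3K27me3 was measured by chromatin immunoprecipitation and sequencing in 7 livers, one list of islands per liver with no pooling. The submitters' processing notes name Bowtie2 (version 2.3.2), SICER (version 1.1) and the build mm9. Settings in the names of the lists were an E-value of 100, a 400 bp window and a 2400 bp gap. The deposited value of each island is the authors' score, which was used only within a list. Input control, duplicate removal and the treatment of reads with several matches are not given in the sources used here. Chromosome lengths were taken as the last island end in any list.

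Cover, island number and distance were compared with two-sided exact permutation tests over the 35 divisions of the livers into 3 and 4. Fractions of 50 kb bins and of merged regions with an island in at least 2 livers were compared over the whole genome in R 4.3.3 by limma, version 3.58.1, using its trend and robust options, p-values being adjusted by Benjamini-Hochberg and read at 0.05; the script was tested on simulated data. Intervals come from inverting the permutation test. Python 3.11.15, NumPy 2.4.6 and Biopython 1.88 did the rest. Named were the 10 genes of the cluster, every region of it and the 5 bins that differed most. The members and lists were chosen with earlier results of these data known. Values per gene other than Cyp2b10, and lists of CAR targets and of hepatocyte and other markers, were not analysed here, since no mm9 annotation was used. Each sample is a separate animal. Alternatives were a score filter, lists of equal number, other bins, merges, filters and variances, each liver left out and a replicate block.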

Additional observations from a re-analysis of the deposited data

Results flagged for a closer look

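Of the measures of the 4 TCPOBOP livers that were checked for 1 liver far from the other 3, 3 of 12 showed one; by chance about 1 in 20 would. Under islands in TCPOBOP replicate 1 were 30.4 kb of the region from 26542001 to 26583600, beside 36.8 to 38.0 kb in the others. TCPOBOP replicate 3 had 8 kb in the region from 26889201 to 26898400 and 11.6 kb in that from 27520401 to 27532000, where the other 3 had 0 kb. In both of those regions an island of any size stands apart from 0 kb, so the 1 in 20 does not apply to them.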

How the results depend on the processing

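The absence of islands over Cyp2b10 after TCPOBOP kept its size with lists of equal number, -12 kb, and -12 kb with the replicate block (exact sign-flip p = 0.25, the smallest that 3 pairs allow); leaving out each liver gave -13.8 to -9.4 kb, with p = 0.0667 or 0.1 (exact permutation), the smallest those numbers of livers allow. The distance was 69.07 to 70.27 kb without each liver and 70.0 kb with the block (exact sign-flip p = 0.25). Among islands at or above the median score of their list, cover was 0 kb in both groups and the distance turned to -18.9 kb (exact permutation p = 0.114). That filter removes all 3 vehicle islands of the stretch and, in vehicle replicates 1 and 3, also those from the region that starts at 26586001, the next one on the Cyp2s1 side. The same filter turned the difference in total cover to 12.1 kb, in island number to 0.917 and in relative cover to 0.0328; the cause was not tested. Without each liver these 3 ran from -59.07 to -12.2 kb, -3.5 to -0.5 islands and -0.1975 to -0.0359. With the block they were -36.8 kb, -2 islands and -0.126.

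Across the genome limma called 1 bin and 13 regions (10 with more, 3 with less cover) without trend and robust variance, and 1 region when an island in 1 liver sufficed, against 0 in each main comparison; the cause was not tested. No other alternative called a bin or region, and the Cyp2b10 region and bin were called in none, with limma adjusted p from 0.326 to 1 and 0.537 to 1 over the alternatives. Without each liver the count stayed at 0 for both. Over bins, the deviations of same-numbered livers from their group means had r = 0.0551, 0.301 and 0.0856. Vehicle replicates 2 and 3 correlated best with the TCPOBOP liver of their own number, and vehicle replicate 1 with TCPOBOP replicate 3 (r = 0.0968). For vehicle replicate 2 the r with the other TCPOBOP livers was -0.171 to -0.0378. For vehicle replicate 3 the r with TCPOBOP replicate 1 was 0.084, almost the same as that with its own number. The labels do not say that a number pairs animals, so the numbers were taken as pairs only in the replicate block. Cover of each gene with and without flanks was not run. Depth is unknown, and a mark below a list's threshold is not visible in it.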
